A study of Salmo salar with 79 samples.

Results

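Wounded skin of Atlantic salmon (Salmo salar) kept crowded or at low density was compared at 14 days post wounding (dpw). The high fish density (HFD) group was stocked at 100 kg/m3 and the control group at 20 kg/m3, and each group gave 5 fish at 14 dpw. Per the methods biomass was left unadjusted, so that density later climbed in the HFD tank and declined in the control tank. These 10 fish were chosen by their labels alone, from the 79 arrays of a series that also covers intact skin and 6 other days of healing. All were post-smolts in seawater, fed a commercial diet and wounded with a 5 mm punch biopsy needle, so that both groups carried the same wound. They differed in stocking density and in the total water flow, which per the methods was higher in the HFD tank. The methods describe 1 tank per density, and tank and density cannot be told apart. RNA came from part of the wound with the skin around it, and was labelled with Cy3 and hybridised to a salmonid oligonucleotide array, 1 array per fish. A level is given below as the log2 intensity of a probe minus the 75th percentile of its array, so that 0 stands for a probe brighter than most. The 75th percentile itself was 560.3 to 834.5 on the HFD arrays and 440.9 to 809.3 on the control arrays.

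Fish skin has a living epidermis of keratocytes and mucous cells, and the dermis below it holds fibroblasts, collagen and the scales. After a wound, keratocytes migrate over the gap within hours, leukocytes clear the site, and fibroblasts later fill it with fibronectin and collagens, on which new scales form. Matrix metalloproteinases cut collagen and gelatin and are made by leukocytes and by the migrating epidermis. Crowding is a chronic stressor in salmon farming, and the comparison asks how it changes the skin at the stage when repair of the dermis is under way.

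At 14 dpw the wounds of HFD fish had lower levels of most listed collagens and mitochondrial genes. Fibronectin, SPARC and other listed products of fibroblasts were lower too. Some probes of the muscle (4 of 9) and red blood cell lists (4 of 5) were lower too, the latter mostly for hemoglobin alpha-4. Higher levels were seen for 6 of 11 protease probes, all for collagenase 3 or matrix metalloproteinase-9. In the keratin list 3 of 8 probes were higher (keratins E3 and S8 and PMP22). Of 15 acute phase probes 3 were higher and 1 was lower, beside 10.3% higher among all named probes. Of the 14841 probes on the array, 12831 were well above background on at least 5 of the 10 arrays and were tested with limma. The criteria of the study ask for an absolute log2 fold change above 0.8 with p under 0.05 before adjustment, and 550 probes met them (4.29%). Of these 283 were higher (2.21% of those tested) and 267 lower (2.08%) in HFD fish. The share that was higher was 51.5% on this scale, 64.7% in the table the authors had scaled and 41.2% after normexp background correction. After Benjamini-Hochberg adjustment 7 probes (0.0546%) remained past the fold criterion, and 2125 had an unadjusted p under 0.05.

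The signal over background differed between the groups. Between 85.5% and 91.9% of probes were well above background on the HFD arrays, against 80.7% to 84.7% on the control arrays, and these ranges did not meet. The tissue is labelled as skin, and all 8 probes of the keratin list and all 5 for type I collagen were well above background in all 10 fish. Of the probes past the criteria, 151 of the 283 higher ones and 243 of the 267 lower ones were well above background on all 10 arrays, and 14 of the higher ones reached that mark in none of the control fish. With the test limited to probes well above background on every array, 408 probes passed and 38.5% of them were higher in HFD fish. The groups shared 1 slide, which held HFD fish 1 and control fish 5, and the difference between these 2 fish is given below as the value within the shared slide. Each other slide held fish of 1 density only, so that for the remaining fish slide and density cannot be told apart.

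The arrays name probes by identifier only, and names came from the study's list of 771 identifiers. That list was chosen on these arrays and is not independent evidence of a direction. Of its members 766 were tested, 79 (10.3%) were higher and 111 (14.5%) were lower in HFD fish, so that a list below has to be read against these shares as well as against those of all probes. The median log2 fold change was 0.15 over the list and 0.03 over all tested probes. The other 360 probes past the criteria had no name here.

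**Figure D1:**
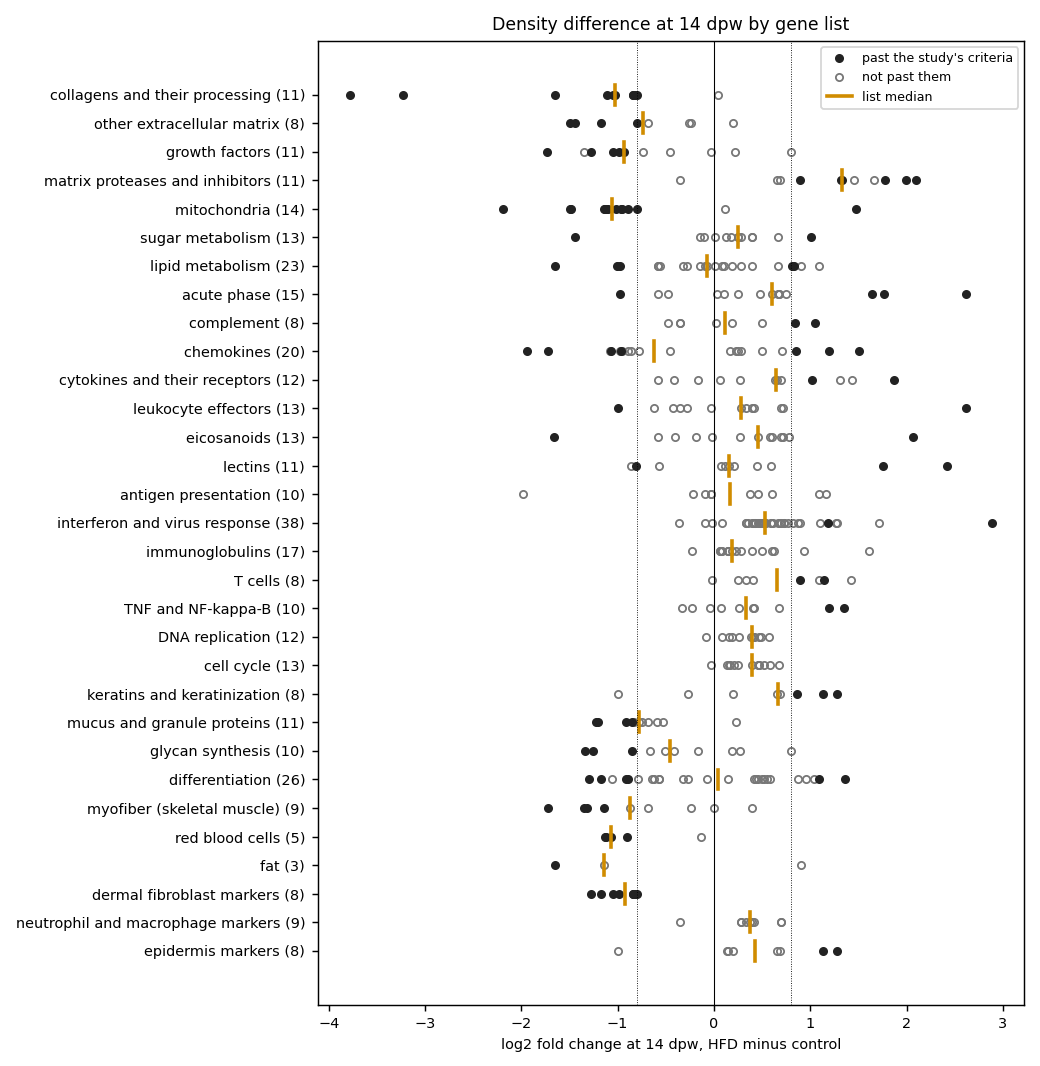
Each point is 1 probe of a gene list, placed by its log2 fold change at 14 dpw (HFD minus control, horizontal axis), with filled points past the study's criteria, dotted lines at the fold criterion and a bar at the list median. Collagens, mitochondrial genes and dermal fibroblast markers lie mostly left of 0, with medians of −1.03, −1.06 and −0.92, and matrix proteases lie mostly right of it, with a median of 1.33.

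The 7 probes past adjustment separated the 2 groups without overlap, as did 375 (2.94%) of the 12766 tested probes measured in all 10 fish. The lowest p was that of a probe (Ssa#GRASP209736395) for catechol-O-methyltransferase domain-containing protein 1, an enzyme of the methyltransferase family. Its levels in fish 1 to 5 were −2.23, −1.7, −2.54, −2.47 and −2.35 in HFD, against −5.53, −5.82, −4.92, −5.47 and −4.85 in control, where it was well above background in 4 of 5 fish. The HFD wounds lay in a narrow band far above all control wounds, a log2 fold change of 3.06 (SE 0.23, adjusted p = 0.000921). Differentially regulated trout protein 1 (Ssa#S18835342), which was described in trout and is listed with the acute phase genes, had levels of 0.02, 0.25, 0.74, 0.04 and 0.55 in HFD fish, against −3.32, −2.12, −1.83, −1.41 and −2.83 in control fish. All HFD fish were at or above 0 and all control fish below −1, a difference of 2.62 (SE 0.34, adjusted p = 0.0296).

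The largest fall among the 7 was that of YIPF5 (Ssa#GRASP209731619), a membrane protein of the Golgi that takes part in transport from the endoplasmic reticulum. Its levels were −3.56, −3.00, −3.84, −2.12 and −3.27 in HFD fish, against 0.37, 0.44, −0.69, −0.60 and −0.15 in control fish. Every HFD wound was thus over 1 log2 unit below every control wound, with a log2 fold change of −3.03 (SE 0.34, adjusted p = 0.0246), which is 8.17-fold. Hepatocyte growth factor activator (Ssa#GRASP209154669), a serine protease that releases the active growth factor, averaged −0.36 ± 0.24 in HFD fish and −1.71 ± 0.27 in control fish (SD, n = 5 each), a difference of 1.36 (adjusted p = 0.0246). Complement C3 (Ssa#S34822137), the central component of the complement cascade, averaged −3.19 ± 0.21 in HFD fish and −4.24 ± 0.13 in control fish, 1.05 higher with the same adjusted p. Angiopoietin-like 2 (Ssa#DY739459), a secreted glycoprotein, averaged 0.52 ± 0.22 in HFD fish and 1.55 ± 0.16 in control fish (log2 fold change −1.03, adjusted p = 0.0296). The last was a probe with no name here (Omy#BX877155), at −4.50 ± 0.37 in HFD fish and −3.08 ± 0.24 in control fish (log2 fold change −1.42, adjusted p = 0.036).

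The 7 calls rest on all 10 fish. Leaving out 1 fish at a time left between 1 and 19 probes past adjustment: 1 without HFD fish 1 or 2 or control fish 1, 2 or 3, 2 without HFD fish 4, 5 without HFD fish 3, 9 without control fish 4, 18 without HFD fish 5 and 19 without control fish 5. Within the shared slide the differences were 2.62 for catechol-O-methyltransferase domain-containing protein 1, 2.85 for differentially regulated trout protein 1, −3.41 for YIPF5, 1.28 for hepatocyte growth factor activator, 1.18 for complement C3, −1.11 for angiopoietin-like 2 and −0.96 for the probe without a name.

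Among the named probes past the criteria whose groups did not overlap, large rises were also those of LBH, a transcription cofactor, and of cytosolic phospholipase A2 gamma, which frees fatty acids from membranes. The 2 LBH probes (Ssa#TC69706 and Ssa#S35548105) gave 3.15 (adjusted p = 0.132) and 2.98 (adjusted p = 0.105), and were well above background in 3 and 4 of the 5 control fish. The second had levels between −2.27 and −0.52 in HFD fish, against −6.09 to −2.77 in control fish, where control fish 4 came closest to the HFD range. The phospholipase probe (Ssa#S35498112) read −1.78, −1.87, −0.89, −1.17 and −3.11 in HFD fish, against −4.30, −3.80, −3.32, −3.22 and −4.55 in control fish (log2 fold change 2.07, SE 0.42, adjusted p = 0.105). HFD fish 5 lay close to the highest control fish. The coiled-coil transcriptional coactivator b (2.20), cytochrome P450 2M1 (1.58), an enzyme that oxidises fatty acids, and 7-dehydrocholesterol reductase (1.47), the last step of cholesterol synthesis, were also higher in every HFD fish than in any control fish.

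After YIPF5, the largest falls of this kind were those of a mitochondrial transcription termination factor (mTERF domain-containing protein 3, −2.29), MSS51 (−2.19), a mitochondrial protein of muscle, and galectin-4 (−1.84), a lectin that binds galactosides. Galectin-4 (Ssa#S50369596) was at −3.94, −3.89, −4.25, −4.45 and −3.25 in HFD fish, against −2.54, −1.89, −2.37, −2.39 and −1.39 in control fish. The groups were well apart, and the adjusted p was 0.0701. The adipocyte fatty acid-binding protein (−1.65), serine protease 23 (−1.57) and neuromodulin (−1.28), a protein of growing nerve endings, completed the list beside matrix genes described next.

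Most of the listed collagen probes were lower in HFD wounds, and the list holds only genes that the study had selected on these arrays. Of the 11 probes for collagens and their processing, 10 passed the criteria downwards and none upwards, with a median log2 fold change of −1.03, although none passed adjustment in limma (lowest adjusted p = 0.0837). Several probes target the same chain of type I collagen, so the 10 are not 10 separate genes. Type I collagen, the main fibre of the dermis, was measured by 5 probes. One probe for its alpha 2 chain (Ssa#S48395633) had levels of 2.48, 1.77, 1.83, 1.6 and 2.48 in HFD fish, against 3.46, 3.21, 2.71, 3.00 and 3.02 in control fish. The groups did not overlap, and the log2 fold change was −1.05 (SE 0.21, adjusted p = 0.105), 2.07-fold. The second alpha 2 probe was lower by 0.84, the alpha 1 probe by 0.84 and the 2 alpha 3 probes by 0.82 and 0.80 on the log2 scale.

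Collagen X, which in mammals marks mineralising cartilage and in zebrafish is also made by bone-forming cells, differed most. One of its 2 probes (Ssa#S35501247) was at 3.70, 1.06, 2.00, −2.40 and 5.35 in HFD fish, against 5.88, 6.11, 5.05, 5.30 and 6.28 in control fish. The control wounds lay close together, whereas the HFD wounds spread widely, with HFD fish 5 inside the control range and HFD fish 4 far below it. The means were 1.94 ± 2.93 in HFD fish and 5.72 ± 0.53 in control fish, a log2 fold change of −3.78 (SE 1.18, adjusted p = 0.215), and the second probe gave −3.23 (SE 0.82, adjusted p = 0.174). Collagen XI alpha 1 (Ssa#GI226374736), a fibril-forming collagen of cartilage and other skeletal tissue, was at −0.51, −1.86, −3.04, −0.79 and −0.46 in HFD fish, against 0.06, 0.26, 0.17, 0.49 and 0.64 in control fish. All HFD fish were below all control fish (−1.65, SE 0.46, adjusted p = 0.189).

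Collagen VII (Omy#CU065019), which anchors the basement membrane of the epidermis to the dermis, averaged −1.24 ± 0.34 in HFD fish and −0.12 ± 0.27 in control fish, again without overlap (log2 fold change −1.11, SE 0.19, adjusted p = 0.0837). Procollagen-lysine dioxygenase (Ssa#TC111637), which hydroxylates lysine in collagen before crosslinking, differed by −1.03 (SE 0.25, adjusted p = 0.163). The exception was collagen VI alpha 2, at 1.2 ± 0.31 in HFD fish and 1.16 ± 0.32 in control fish (log2 fold change 0.04). Within the shared slide the collagen median was −0.73, and only 1 of the 11 probes passed the criteria with slide as a fixed block. Without control fish 1 the number was 6 of 11, with a median of −0.95, and without any other fish it lay between 7 and 10.

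Some listed genes that bind or crosslink collagens were lower too. Of the 8 probes in the list of other matrix genes 4 passed the criteria downwards and none upwards, with a median of −0.74. Fibronectin (Ssa#S35698682), the scaffold on which fibroblasts lay down collagen, was at 2.00, 2.16, 1.07, 2.22 and 2.43 in HFD fish, against 3.58, 3.24, 3.43, 3.19 and 3.63 in control fish. The highest HFD fish stayed below the lowest control fish, and the difference was −1.44 (SE 0.24, adjusted p = 0.0837), 2.71-fold. Periostin (Ssa#S35559341), a matrix protein of healing wounds, was at −0.10, −0.35, −0.67, −0.66 and 0.56 in HFD fish, against 0.97, 0.98, 1.05, 0.87 and 0.77 in control fish. The control fish were nearly alike, and the log2 fold change was −1.17 (SE 0.22, adjusted p = 0.0898). Lysyl oxidase (protein-lysine 6-oxidase), which crosslinks collagen, averaged 1.22 ± 0.35 in HFD fish and 2.02 ± 0.23 in control fish (−0.80, adjusted p = 0.143), and matrix Gla protein, an inhibitor of mineralisation, differed by −1.49 with overlapping groups (adjusted p = 0.266). Repetin (−0.68), laminin beta-4 (−0.26), Sid4 (−0.24) and hyaluronidase-2 (0.20) did not pass the criteria. Without control fish 1 or control fish 5 the number past the criteria was 2, as it was after normexp (median −0.33), and with slide as a fixed block 1 probe was higher and 1 lower (median −0.48).

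**Figure D2:**
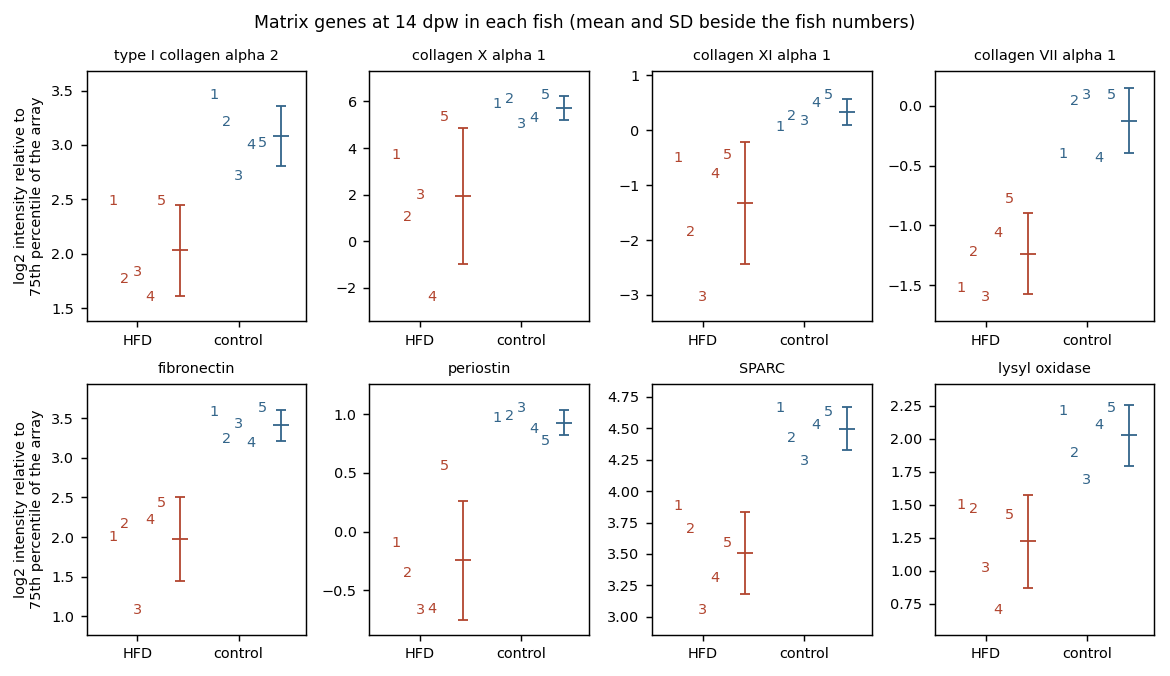
Levels of 8 matrix genes at 14 dpw (vertical axis, log2 intensity relative to the 75th percentile of the array), with each digit the number of a fish, HFD on the left and control on the right, and the mean with its SD beside them. For fibronectin, periostin, SPARC, lysyl oxidase, type I collagen and collagens VII and XI no HFD fish reaches the lowest control fish, whereas for collagen X HFD fish 5 does.

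Of the 11 probes for growth factors and their partners, 5 passed the criteria downwards and none upwards (median −0.93). SPARC (Ssa#S47624912), a secreted protein that binds collagen and is abundant in fibroblasts and bone cells, was at 3.88, 3.70, 3.05, 3.31 and 3.59 in HFD fish, against 4.66, 4.42, 4.24, 4.53 and 4.63 in control fish. No HFD fish reached the control range (log2 fold change −0.99, SE 0.17, adjusted p = 0.0837). Mimecan (osteoglycin), a small proteoglycan that binds collagen fibrils, differed by −1.28 (adjusted p = 0.202), the serine protease HTRA1, which can limit TGF-beta signalling, by −1.05 (adjusted p = 0.0869), EGF-like domain multiple 6 by −1.73 (adjusted p = 0.162) and Kruppel-like factor 11a, a transcription factor of the TGF-beta response, by −0.93 (adjusted p = 0.217). The other 6 members did not pass: an adiponectin with C1q domain (−1.35), heparin-binding growth factor 1 (−0.74), growth hormone-regulated TBC protein 1-A (−0.46), angiopoietin-related protein 4 (−0.03), IGF binding protein 6 (0.22) and angiotensinogen (0.80). With slide as a fixed block none of the 11 passed (median −0.76).

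A set of 8 probes for type I collagen, SPARC, mimecan and periostin was also counted together as markers of dermal fibroblasts. All 8 passed the criteria downwards, 7 of them with no overlap between the groups, and the median was −0.92. These probes are also members of the lists above, 5 of them for type I collagen, so the count repeats those falls and is not further evidence. Collagen VI alpha 2 (0.04) was not in the set. Their list score, which averages over its probes each fish's deviation from the mean of all 10, lay between −0.88 and −0.13 in HFD fish, against 0.28 to 0.82 in control fish. In RNA of whole skin, fewer cells of a type and less RNA per cell cannot be told apart. The number of these probes past the criteria was 4 without control fish 1 and 5 without HFD fish 2, 3 or 4, and with slide as a fixed block none passed (median −0.68).

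Matrix proteases went the other way. Of 11 probes for metalloproteinases and their inhibitors, 6 passed the criteria upwards and none downwards (median 1.33, lowest adjusted p = 0.219). The 6 were all probes for collagenase 3 or matrix metalloproteinase-9, so they are not 6 separate genes. Collagenase 3 (mmp13, Ssa#GRASP209156091), which cuts fibrillar collagen, was at 3.32, 4.84, 4.22, 4.85 and 5.09 in HFD fish, against 1.45, 1.82, 3.26, 4.92 and 0.92 in control fish. Control fish 4 was above 4 of the 5 HFD fish, and the other 4 control fish lay below all of them. The log2 fold change was 1.99 (SE 0.70, adjusted p = 0.241), and the other 2 collagenase 3 probes gave 2.10 and 1.78.

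Matrix metalloproteinase-9 (mmp9, Ssa#GRASP209155851), the gelatinase of neutrophils and macrophages, was at 3.75, 4.63, 3.55, 4.66 and 4.86 in HFD fish, against 2.23, 2.62, 3.46, 4.46 and 2.03 in control fish. The pattern over fish was the same, with control fish 4 inside the HFD range and control fish 3 just below it (log2 fold change 1.33, SE 0.47, adjusted p = 0.238). The other mmp9 probes gave 1.32, 0.89 and 1.45, the last not past the criteria and well above background in 3 control fish. A probe named only as a matrix metalloproteinase (1.66), mmp25 (0.69), metalloproteinase inhibitor 2 (0.65) and ADAMTS15 (−0.35) did not pass. The groups overlapped for every protease probe except ADAMTS15, and without control fish 4 the median was 1.71 and 9 of the 11 passed. Without HFD fish 2, 4 or 5 or control fish 1, 2 or 5 there were 4 (medians 1.12 to 1.26), and after normexp also 4 (median 1.1). The list of neutrophil and macrophage markers had a median of 0.37, and none of its 9 probes passed the criteria. Its score lay between −0.10 and 0.57 in HFD fish, against −0.50 to 0.33 in control fish, where control fish 3 and 4 were the highest. The part of these cells in the protease levels was not tested.

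Genes of the acute phase, made by the liver and in skin during inflammation, were partly higher. Of 15 tested, 3 passed upwards and 1 downwards, with a median of 0.60. Beside differentially regulated trout protein 1 these were serotransferrin-1 (1.77, adjusted p = 0.209) and serotransferrin-2 (1.64, adjusted p = 0.232), plasma proteins that bind iron. Serotransferrin-1 (Ssa#GRASP209154423) was at −0.61, 0.72, −0.95, −0.61 and −1.01 in HFD fish, against −2.98, −2.88, −0.55, −3.18 and −1.70 in control fish. Control fish 3 was within the HFD range, and without it 8 of the 15 members passed upwards, as did 5 without HFD fish 5. Apolipoprotein O, which is also in the list of lipid metabolism, differed by −0.98 (adjusted p = 0.258), and the 4 serum amyloid A probes, between 0.60 and 0.75, did not pass. In the complement list 2 of 8 passed, C3 and component C7-1 (0.84, adjusted p = 0.219), and the median was 0.11.

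**Figure D3:**
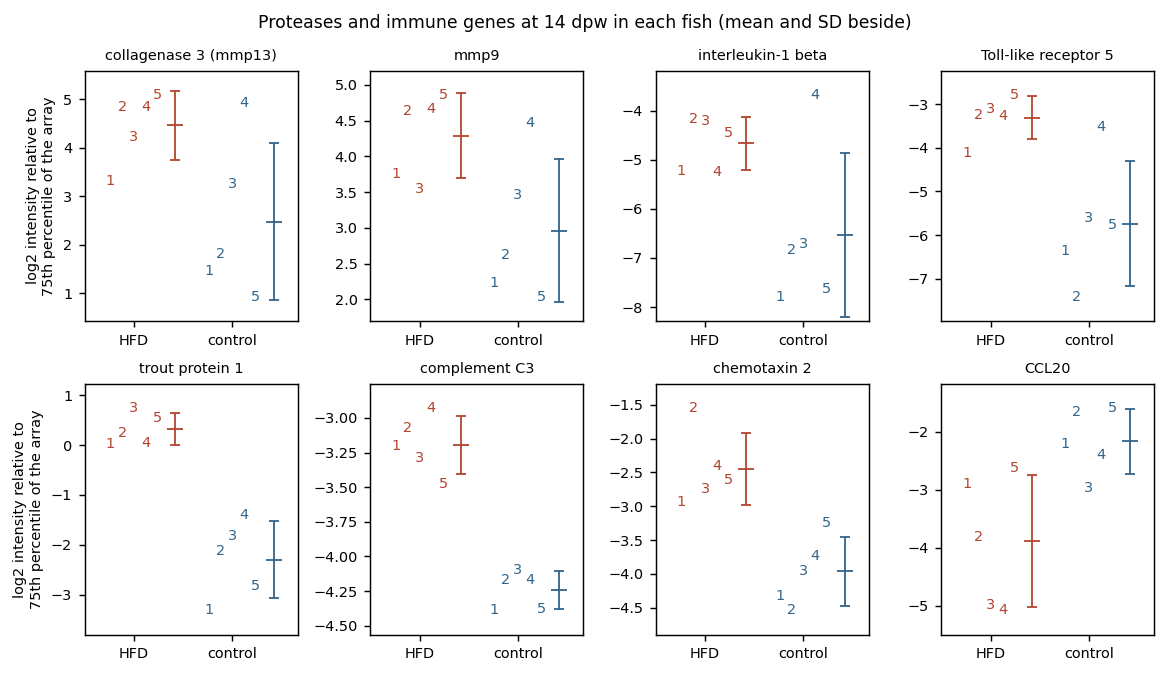
Levels of 8 protease and immune genes at 14 dpw (vertical axis, log2 intensity relative to the 75th percentile of the array), with each digit the number of a fish, HFD on the left and control on the right, and the mean with its SD beside them. Control fish 4 lies among the HFD fish for collagenase 3 and mmp9 and above them for interleukin-1 beta, whereas for trout protein 1, complement C3 and chemotaxin 2 the groups are apart.

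Chemokines, which draw leukocytes into tissue, moved in both directions. Of 20 probes 3 were higher and 4 lower, beside shares of 10.3% and 14.5% over the study's list. The other 13 did not pass, and the median of the 20 was −0.62. The median was −0.17 without HFD fish 3, −0.31 without control fish 3 and −0.13 without both HFD fish 2 and HFD fish 3, and with slide as a fixed block 2 were higher and none lower. CCL20 (Ssa#S35549491), which attracts lymphocytes and dendritic cells to epithelia in mammals, was at −2.90, −3.81, −4.98, −5.08 and −2.62 in HFD fish, against −2.21, −1.66, −2.96, −2.40 and −1.59 in control fish. The log2 fold change was −1.72 (SE 0.51, adjusted p = 0.209) with a small overlap, a second probe gave −1.94, and a further pair gave −0.89 and −0.86 without passing. CCL28, a chemokine of mucosal epithelia, differed by −1.07 and −0.97 on a pair of probes, both without overlap, and by −0.46 on another probe, which did not pass.

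The chemokines that were higher are CCL25, CCL19 and leukocyte cell-derived chemotaxin 2, a factor that attracts neutrophils. CCL25 (Ssa#S47727203) was at 2.33, 2.56, 2.88, 2.97 and 2.15 in HFD fish, against 1.31, 1.25, 1.67, 1.86 and 0.87 in control fish, so that the groups were apart (1.19, SE 0.22, adjusted p = 0.0883). Chemotaxin 2 (Ssa#TC94054) was at −2.93, −1.55, −2.75, −2.41 and −2.61 in HFD fish, against −4.33, −4.54, −3.96, −3.74 and −3.24 in control fish (1.51, SE 0.30, adjusted p = 0.105). Within the shared slide its difference was 0.31, control fish 5 being the highest of its group, and the other 2 probes for this factor gave 0.71 and 0.23 without passing. CCL19 differed by 0.85 and was apart as well.

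Among cytokines and their receptors 2 of 12 probes passed, both upwards. There were 7 without control fish 4, 1 without HFD fish 2, 3, 4 or 5 or control fish 2, and none without control fish 1 or control fish 5. Interleukin-1 beta, a first signal of inflammation, was at −5.24, −4.17, −4.21, −5.26 and −4.45 in HFD fish, against −7.80, −6.84, −6.72, −3.68 and −7.64 in control fish. It was well above background in 5 HFD fish and in 1 control fish, fish 4, which had the highest level of all 10. The log2 fold change was 1.87 (SE 0.70, adjusted p = 0.255), or 2.58 without control fish 4. Interleukin-1 beta no longer passed without control fish 1 (1.55) or control fish 5 (1.6), nor after normexp (0.19) or in the authors' table (0.55). A C-C chemokine receptor gave 1.02 (adjusted p = 0.295).

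Receptors and lectins that recognise microbes included some of the larger rises. A probe named for Toll-like receptor 5 (Ssa#S22336501), which binds bacterial flagellin, was at −4.12, −3.25, −3.12, −3.27 and −2.79 in HFD fish, against −6.36, −7.42, −5.60, −3.52 and −5.77 in control fish, where it was well above background in 2 of 5. Control fish 4 again lay within the HFD range (2.42, SE 0.60, adjusted p = 0.174). After normexp the difference was 0.57 and below the fold criterion, and with slide as a fixed block it was 1.66 and did not pass. Mannose-specific lectin (Ssa#GRASP209733483) was at 2.08, 2.04, 2.09, 0.50 and 1.07 in HFD fish, against 0.14, −0.46, −0.54, −0.15 and −0.01 in control fish. Every HFD fish was above every control fish (1.76, SE 0.32, adjusted p = 0.0869), while spondin-2 was lower (−0.81, adjusted p = 0.238), and 8 of the 11 lectins did not pass (median 0.16). After normexp, and among probes well above background on all arrays, 1 lectin was higher in place of 2.

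Smaller numbers of other immune genes passed. Among 13 eicosanoid genes (median 0.46) lipocalin-type prostaglandin D synthase differed by −1.66 (adjusted p = 0.268) and cytosolic phospholipase A2 gamma, described above, by 2.07. Among 13 leukocyte effectors (median 0.28) defensin beta 4 differed by −1.0 (adjusted p = 0.113, groups apart) and differentially regulated trout protein 1 by 2.62. Among 10 genes of TNF and NF-kappa-B signalling STEAP4, a metalloreductase induced by TNF alpha, differed by 1.35 and 1.19 on 2 probes whose groups were apart (adjusted p = 0.105 and 0.113). Among 8 T cell genes 2 passed upwards, a maturation-associated protein (1.14) and CD53 (0.89), a membrane protein found on leukocytes in general. None of 17 immunoglobulin probes and none of 10 genes of antigen presentation passed, with medians of 0.19 and 0.17. The immunoglobulin median was −0.11 without HFD fish 5, −0.06 without control fish 1, 0.56 without HFD fish 4, with 3 probes higher, and 1.27 with slide as a fixed block, with 1 lower. The largest immunoglobulin value was 1.61 for a heavy chain, at −2.59 to 0.58 in HFD fish and −4.93 to −1.53 in control fish.

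Interferon and virus response genes had a median of 0.53, and 35 of 38 were positive, but 2 passed the criteria. IFN-induced protein 44 (Ssa#S31987442) was at −0.07, 0.11, 1.28, 1.19 and 0.45 in HFD fish, against −4.15, −2.96, 0.82, −4.11 and −1.07 in control fish (2.89, SE 0.89, adjusted p = 0.212), and thymidylate kinase differed by 1.18 (adjusted p = 0.291). The score of the list lay between −0.41 and 1.63 in HFD fish, against −0.75 to 0.31 in control fish. HFD fish 3 was the highest of its group and control fish 3 of the control group, and the 2 ranges overlapped broadly. Without HFD fish 3 the median was 0.28, and with any 1 fish left out between 1 and 6 members passed, the most without control fish 4.

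Most listed genes of mitochondria, which supply the cell with ATP, were lower. They too had been selected by the study on these arrays. Of 14 probes 12 passed downwards and 1 upwards, with a median of −1.06, and none passed adjustment (lowest adjusted p = 0.132). The lower ones covered the citric acid cycle (isocitrate dehydrogenase −1.14, malate dehydrogenase −0.80, succinyl-CoA ligase −0.95) and the pyruvate dehydrogenase complex (dihydrolipoamide acetyltransferase −1.13). They also covered the respiratory chain (cytochrome c −1.12, cytochrome b-c1 subunit 8 −0.89) and ATP synthase (lipid-binding subunit −1.49, alpha subunit −1.02, coupling factor 6 −0.97). The others were NADP transhydrogenase (−1.10), an ES1 homolog (−1.48) and MSS51. ATP synthase coupling factor 6 (Ssa#S47729932), which belongs to the stalk of the enzyme, was at 4.72, 4.52, 4.39, 3.76 and 5.42 in HFD fish, against 5.46, 6.33, 4.76, 5.19 and 5.92 in control fish. HFD fish 4 was the lowest of the 10 and HFD fish 5 lay inside the control range (SE 0.35, adjusted p = 0.243). The groups overlapped for 13 of the 14 probes, MSS51 being the exception.

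Cytochrome c oxidase subunit 4 isoform 2 (Ssa#GRASP209736785), the form linked to low oxygen in mammals, went against the list. It was at 0.40, −0.84, −0.92, −1.59 and −0.64 in HFD fish, against −3.08, −1.48, −2.33, −1.87 and −2.26 in control fish. Only HFD fish 4 and control fish 2 crossed over (1.48, SE 0.38, adjusted p = 0.174). Pyruvate dehydrogenase kinase 2 did not pass (0.11). In the list of sugar metabolism 1 of 13 probes was higher, fructose-1,6-bisphosphatase (1.01), and 1 was lower, 6-phosphofructokinase (−1.44). A further probe, named fructose-1,6-bisphosphatase 1 (0.28), was among the 11 that did not pass. Over the study's list 10.3% of probes were higher and 14.5% lower. Of 23 tested genes of lipid metabolism 2 were higher, the lipolysis-stimulated lipoprotein receptor (0.81) and an acylglycerol-phosphate acyltransferase (0.83), and 3 were lower, apolipoprotein O and the fatty acid-binding proteins of adipocytes (−1.65) and brain (−1.01).

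Some markers of muscle, red blood cells and fat were lower as well. Of 9 muscle fibre genes 4 passed downwards and none upwards (median −0.87): a calsequestrin (−1.72), myomesin 2 (−1.35), fast muscle actin 2 (−1.32) and MuRF1c (−1.14). Slow skeletal troponin T (−0.87), myosin light polypeptide 4 (−0.69), a muscle-derived taxilin (−0.24), telethonin (0.0) and tropomodulin-3 (0.39) did not pass. The score of the muscle list lay between −1.19 and 0.41 in HFD fish, against −0.11 to 0.67 in control fish. HFD fish 4 had the lowest score and HFD fish 5 the highest HFD score for both muscle and mitochondrial genes. The same fish held these places among HFD fish for collagens, growth factors, fat, immunoglobulins and differentiation, so the order is not particular to muscle and mitochondria. The mitochondrial score was −1.2 in HFD fish 4 and 0.26 in HFD fish 5, and ran from −0.19 to 1.27 in control fish. Of 5 probes in the red blood cell list 4 passed downwards. Of these, 3 target hemoglobin alpha-4 (−0.90, −1.12 and −1.07) and are not separate genes. The other targets the Rh type B transporter (−1.13), whose source in red blood cells was not tested. Erythroid 5-aminolevulinate synthase did not pass (−0.13). The scores of this list were −1.11 to 0.31 in HFD fish and −0.01 to 0.66 in control fish. Of 3 fat markers the adipocyte fatty acid-binding protein passed downwards, adiponectin was at −1.14 and perilipin at 0.90, and the scores were −1.23 to 0.30 in HFD fish and −0.14 to 0.70 in control fish.

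All of these markers that passed the criteria were well above background on all 10 arrays, so that these probes gave signal in both groups. The part of muscle, blood or fat RNA in the mitochondrial and collagen values was not tested. The median of the mitochondrial list was −0.90 without HFD fish 4, with 7 probes lower, and −0.85 without control fish 2, with 6 lower. Without both HFD fish 2 and HFD fish 3 it was −0.97 with 4 lower, and with slide as a fixed block 2 were lower. That of the muscle list was −0.83 without HFD fish 4, with 3 probes lower. In that list 1 probe was lower without control fish 1 and 2 without HFD fish 3 or control fish 2 or 5, and in the red blood cell list 2 without HFD fish 3. Within the shared slide the medians were −1.30 for mitochondria, −1.0 for muscle and −0.05 for red blood cells, and no muscle or red blood cell probe passed with slide as a fixed block.

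**Figure D4:**
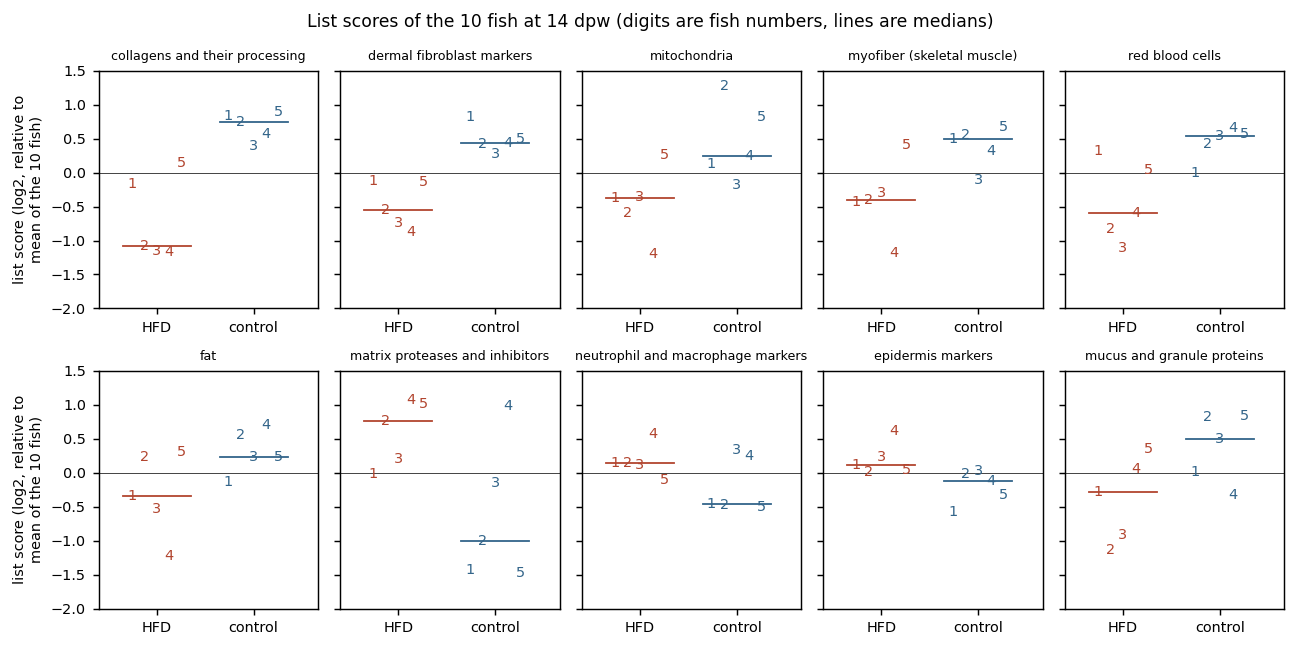
List scores of the 10 fish at 14 dpw (vertical axis, log2 deviation from the mean of all 10 fish, averaged over the probes of a list), with each digit the number of a fish, HFD on the left and control on the right, and lines at the group medians. Collagens and fibroblast markers separate the groups, whereas for each of the other 8 lists drawn at least 1 fish lies within the range of the other group. Some lists not drawn separate the groups as well. Scores are lower in every HFD fish for other matrix genes (at most −0.16, control at least 0.15), growth factors (0.0 and 0.23) and glycan synthesis (−0.09 and 0.13). For keratins they are higher (HFD at least 0.10, control at most −0.03).

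The keratin list and the mucous cell genes differed in direction, in RNA that was not taken from the epidermis alone. Of 8 genes of keratins and keratinisation 3 passed upwards and none downwards (median 0.67). Type II keratin E3 (Ssa#S35492043) was at 6.50, 5.92, 6.94, 7.04 and 5.37 in HFD fish, against 4.63, 5.49, 5.53, 5.52 and 4.97 in control fish, and HFD fish 5 alone was inside the control range (1.13, SE 0.33, adjusted p = 0.208). Type I keratin S8 differed by 1.28 (adjusted p = 0.189) and PMP22 (peripheral myelin protein) by 0.86 (adjusted p = 0.244). Periplakin (0.69), keratin 18 (0.65), keratin E2 (0.20), a keratin-associated protein (−0.27) and keratin 20 (−1.0) did not pass. None passed with slide as a fixed block (median 0.80), and 5 did without HFD fish 2 or control fish 4. The epidermis markers, 8 keratin, periplakin and cadherin probes, scored between 0.01 and 0.61 in HFD fish, against −0.58 to 0.03 in control fish.

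Of 11 probes for proteins of mucus and secretory granules 4 passed downwards and 7 did not (median −0.78, lowest adjusted p = 0.27). Zymogen granule membrane protein 16, a lectin of mucous cells, had 3 of its 8 probes past the criteria (−1.2, −0.91 and −0.85). One of them (Ssa#S50370027) was at 3.62, 2.69, 2.86, 3.77 and 4.19 in HFD fish, against 3.97, 5.05, 4.43, 3.41 and 4.83 in control fish. The ranges overlapped, with HFD fish 2 and 3 lowest. Of the 2 giant mucus protein probes 1 passed (−1.23) and the other did not (0.23), nor did large mucosal protein (−0.78). Without HFD fish 3 or control fish 5 none of the 11 passed, without HFD fish 2 or control fish 2 or 3 there was 1, and without HFD fish 5 there were 7. None passed with all 16 groups in one fit, which gives the same median. Among 10 probes of glycan synthesis 3 passed downwards, 2 of them for beta-1,4-galactosyltransferase 1 (−1.34 and −1.26), which adds galactose to glycans. The lowest adjusted p of this list (0.163) was that of a rise just short of the fold criterion, an alpha-2,6-sialyltransferase 6 (0.80).

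Genes of cell division showed small positive values. The medians were 0.39 for 12 genes of DNA replication and 0.39 for 13 of the cell cycle, and none passed the fold criterion. The largest were SLD5 of the GINS replication complex at 0.57 (adjusted p = 0.183) and the ubiquitin-conjugating enzyme E2 C at 0.68 (adjusted p = 0.2). All but 1 member of each list was positive. The replication score lay between −0.07 and 0.37 in HFD fish, against −0.37 to 0.03 in control fish, and HFD fish 2 and 5 were within the control range.

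The density difference at 14 dpw was then set against that at 7 and 36 dpw, with 5 other fish per group at each day. The interaction of density with day passed adjustment for 1 probe against 7 dpw and for 0 against 36 dpw in limma, and 1557 (12.1%) and 986 (7.68%) probes had an unadjusted p under 0.05. Against 36 dpw, normexp gave 1 probe and the fish number as a block 4. The probe past adjustment against 7 dpw was YIPF5, whose density difference at 14 dpw minus that at 7 dpw was −3.45 (SE 0.53, adjusted p = 0.0451). Its level at 7 dpw was −0.09 ± 0.87 in HFD fish and −0.51 ± 0.29 in control fish, and at 14 dpw −3.16 ± 0.66 in HFD fish and −0.13 ± 0.53 in control fish (SD, n = 5 each). At 36 dpw it varied widely, at 0.40 ± 1.95 in HFD fish and 0.66 ± 1.89 in control fish. The lowest fish at 36 dpw were at −2.83 in HFD and −2.37 in control, and at 1 dpw at −2.43 in HFD and −2.05 in control. Single fish of both densities thus came near or within the HFD range of 14 dpw (−3.84 to −2.12) on other days. Differentially regulated trout protein 1 was the 1 probe past adjustment against 36 dpw after normexp (2.26, adjusted p = 0.00527), with 3.42 (adjusted p = 0.289) on the scale used here. It was at 1.51 ± 0.33 in HFD fish and 0.97 ± 1.49 in control fish at 7 dpw, and at −5.15 ± 1.07 in HFD fish and −4.35 ± 1.01 in control fish at 36 dpw. Catechol-O-methyltransferase domain-containing protein 1 was lower in HFD fish at 1 dpw, at −4.98 ± 0.37 against −3.59 ± 0.26 in control fish. At 3 dpw it was at −2.22 ± 0.97 in HFD fish and −2.30 ± 1.03 in control fish. Its density difference at 14 dpw minus that at 7 dpw was 1.73 (adjusted p = 0.487), and 0.49 after normexp.

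The median of the collagen list was −0.18 at 7 dpw, where 5 of the 11 probes were lower in HFD fish, −1.03 at 14 dpw, where 10 were, and −0.22 at 36 dpw, where 0 were. For none of them did the interaction pass adjustment (lowest adjusted p = 0.29 against 7 dpw and 0.446 against 36 dpw). The collagen median was also negative at 1 dpw (−0.71, 2 probes lower) and at 3 dpw (−0.42, 3 lower). Other matrix genes were about as low at 7 dpw (median −0.77, 4 of 8 lower) as at 14 dpw (−0.74, 4 lower). The growth factor list had −0.72 at 7 dpw, with 4 lower and 1 higher, and −0.93 at 14 dpw, with 5 lower. Type I collagen alpha 2 (Ssa#S48395633) was at 0.83 ± 0.80 in HFD fish and 1.01 ± 0.65 in control fish at 7 dpw, and at 2.03 ± 0.42 in HFD fish and 3.08 ± 0.28 in control fish at 14 dpw. At 36 dpw it was at 4.48 ± 0.47 in HFD fish and 4.68 ± 0.37 in control fish. Its mean thus increased over these days in both groups, and the HFD mean at 14 dpw lay between the control means at 7 and 14 dpw. The HFD means of fibronectin (1.98) and SPARC (3.51) did so as well. Those of collagen X (1.94) and ATP synthase coupling factor 6 (4.56) were below both control means. So was that of periostin (−0.24), though close to its control mean at 7 dpw (−0.14). Fibronectin was at 0.75 ± 0.57 in HFD fish and 1.72 ± 0.77 in control fish at 7 dpw, and at 3.84 ± 0.41 in HFD fish and 2.96 ± 1.00 in control fish at 36 dpw, so that its HFD mean was the higher one at the later day. Its density difference at 14 dpw minus that at 36 dpw was −2.32 (SE 0.52, adjusted p = 0.411). Collagen X was at 1.24 ± 1.81 in HFD fish and 3.50 ± 0.58 in control fish at 7 dpw, and at 5.05 ± 0.39 in HFD fish and 5.28 ± 0.20 in control fish at 36 dpw. The wide spread of the HFD fish was thus seen at 7 and 14 dpw. Control fish also spread widely at 43 dpw, at 4.26 ± 2.67.

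The median of the protease list was 1.79 at 7 dpw, where 8 of 11 probes were past the criteria upwards, 1.33 at 14 dpw, where 6 of 11 were, and 0.90 at 36 dpw, where 1 of 10 was. Collagenase 3 was at 6.10 ± 0.62 in HFD fish and 4.24 ± 0.63 in control fish at 7 dpw, at 4.46 ± 0.72 in HFD fish and 2.48 ± 1.62 in control fish at 14 dpw, and at 1.53 ± 0.79 in HFD fish and 0.37 ± 1.42 in control fish at 36 dpw. Its mean decreased over this period in both groups, and the HFD mean at 14 dpw was close to the control mean at 7 dpw. Type II keratin E3 was at 6.99 ± 0.30 in HFD fish and 6.58 ± 0.15 in control fish at 7 dpw and at 6.36 ± 0.70 in HFD fish and 5.23 ± 0.41 in control fish at 14 dpw.

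The mitochondrial list had medians of −0.54, −1.06 and −0.05 at 7, 14 and 36 dpw, and the muscle list of −0.23, −0.87 and 0.23. The lowest adjusted p of the interaction was 0.263 in the mitochondrial and 0.396 in the muscle list against 7 dpw, and 0.553 in both against 36 dpw. The list of mucus and granule proteins was lowest at 36 dpw, where its median was −2.93 with 9 of 11 probes lower, against −0.78 at 14 dpw.

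**Figure D5:**
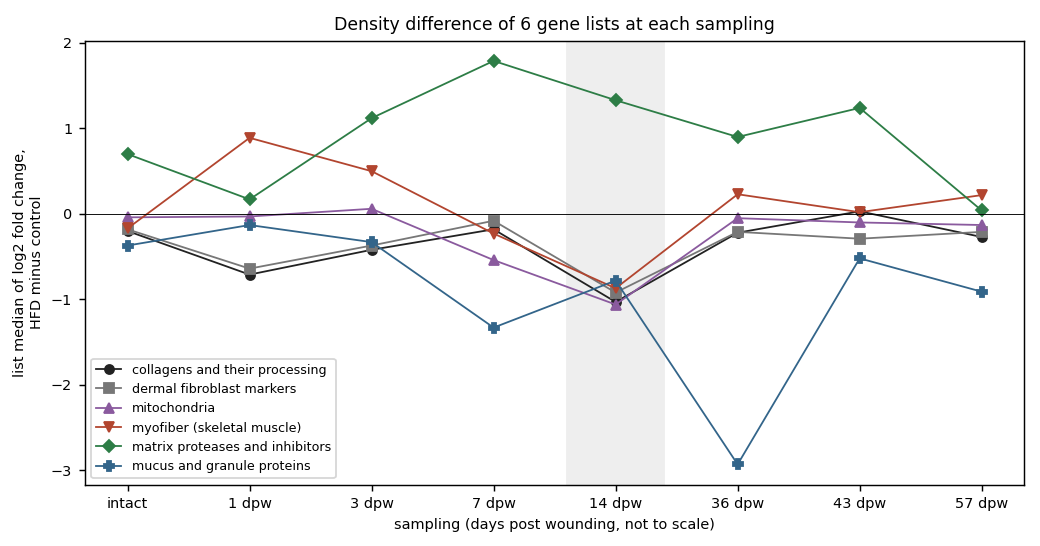
Median log2 fold change of 6 gene lists (vertical axis, HFD minus control) in intact skin and at each sampling day (horizontal axis, not to scale), with 14 dpw shaded. Collagens, fibroblast markers, mitochondria and muscle are lowest at 14 dpw, the proteases are positive at every sampling, and the mucus and granule proteins are lowest at 36 dpw.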

How the data were processed

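The authors deposited scanner files of Agilent Feature Extraction 12.0.1.1, whose processed signal is an intensity with the background already subtracted and no scaling between arrays. They also deposited a table of scaled intensity values of the same arrays, whose rows followed the feature number of the scanner files (lowest correlation 0.952), and which was used as an alternative. The extraction kit differs between the labels (RNeasy) and the methods (PureLink).

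The 536 control spots and spots marked as outliers were left out, and the deposited intensity was set on the log2 scale minus the 75th percentile of each array over 14841 probes. HFD and control fish at 14 dpw were compared with limma 3.58.1 in R 4.3.3 (lmFit, eBayes), over probes well above background on at least 5 of the 10 arrays, and p-values were adjusted over all tested probes by the Benjamini-Hochberg method. Interactions with day were fitted on the 4 groups of 2 days. Simulated data were used to test the script. The number of arrays limits the precision.

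The genes named are all probes past adjustment, the 10 largest rises and falls among named probes whose groups did not overlap, up to 4 members of each list, and the collagen, growth factor, mitochondrial and protease lists in full. Other members with values were named to account for a list. The members and lists were chosen with earlier results of these data known. The names are those of the study's list, which also gives the authors' fold changes, and these were not used. Each density was 1 tank, so p-values measure the spread between fish of a tank. The main fit had no slide term, so its group difference also carries any difference between slides. Fish numbers do not pair the groups: the correlation of the deviations of same-numbered fish lay between −0.222 and 0.255. Alternatives were quantile normalization, normexp (offset 50), the authors' table, other filters, outlier spots kept, all 16 groups in one fit, analysis of variance, the fish number or slide as a block, and each fish left out. Added after the data were seen were all 16 groups with slide as a block, and a fit without HFD fish 2 and 3, whose slide was the brightest.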

Additional observations from a re-analysis of the deposited data

Results flagged for a closer look

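Of 350 groups of 5 fish examined, 1 for each named probe or list score and treatment, 13 held a fish whose gap to the next took up most of the range of its group, and chance alone is expected to flag about 1 group in 20. Among immune genes interleukin-1 beta was highest in control fish 4 at −3.68 (next −6.72), an MHC class I probe was highest in control fish 5 at 1.89 (next −4.24), an immunoglobulin heavy chain was lowest in control fish 1 at −4.93 (next −2.33), and CCL20 (second probe) was lowest in control fish 3 at −5.65 (next −3.69). HFD fish 2 was highest for serotransferrin-1 at 0.72 (next −0.61), serotransferrin-2 at 0.14 (next −1.09) and the coiled-coil transcriptional coactivator b at 2.22 (next 0.62). HFD fish 5 was highest for the alpha subunit of ATP synthase at 0.55 (next −0.33) and for succinyl-CoA ligase at 0.11 (next −0.70), and had the lowest glycan synthesis score, −0.43 (next −0.18). HFD fish 4 was highest for hyaluronidase-2 at 1.21 (next 0.21). Keratin 20 was lowest in control fish 3 at −0.87 (next 0.42), and a hemoglobin alpha-4 probe (Ssa#S50687585) in control fish 1 at −0.50 (next 0.05).

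YIPF5 was the 1 probe whose density difference at 14 dpw differed from that at 7 dpw, by −3.45 with an adjusted p of 0.0451. Over the alternatives the adjusted p lay between 0.0374 (fish number as a block) and 0.427 (all 16 groups in one fit), and it was 0.0514 after quantile normalization.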

How the results depend on the processing

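Of the 102 probes past the study's criteria among the 144 chosen for naming, 101 kept their direction in every alternative that could be run, the exception being a hemoglobin alpha-4 probe (Ssa#S50687585) at 0.02 with slide as a fixed block, and 63 stayed past the criteria with each fish left out in turn. With slide as a fixed block, which rests on HFD fish 1 against control fish 5, 33 stayed past them, and with all 16 groups and slide as a block 57.

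The number of probes past the criteria, 550, was 182 after normexp, 868 with no filter on dim probes, 1171 with slide as a fixed block and 355 without the 2 HFD arrays of the brightest slide. It lay between 397 and 797 with each fish left out. The share higher in HFD, 51.5%, was 42.6% after quantile normalization, 41.2% after normexp, 64.7% in the authors' table, 40.1% with no filter, 38.5% for probes well above background on all arrays, 44.3% with all 16 groups in one fit, 46.5% with the fish number as a block, 44.9% with slide as a fixed block and 33.9% with all 16 groups and slide as a block, and between 40.1% and 73.8% with each fish left out. The authors' table moved the median of all probes to 0.12.

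The 7 probes past adjustment became 32 with all 16 groups in one fit, 1 in the analysis of variance, 0 with slide as a fixed block, 1 with all 16 groups and slide as a block, 1 without the 2 HFD arrays of the brightest slide, and between 1 and 19 with each fish left out. With the fish number as a replicate block, which the check of the numbers does not bear out as a pairing, the number was 8, and 681 probes passed the criteria. The interaction with 7 dpw passed for 0 probes after quantile normalization, 4 after normexp and 3 with the replicate block, against 1, and the interaction with 36 dpw for 1 after normexp and 4 with the replicate block, against 0. The cause of these shifts was not tested.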
